A study of Homo sapiens with 6 samples.

Results

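The exons described here were skipped nearly always in control cells. They were chosen by their control values alone, from a table of cassette exon events in MDA-MB-231-BrM2a cells. These are human breast cancer cells of the line MDA-MB-231 that were selected for metastasis to the brain, and their poly(A) RNA was sequenced. The table held 24648 events after 77 exact repeats were dropped, and in 22915 of them each group had 30 reads or more. An event was a member where its control inclusion rate, pooled over the samples of the group, was at most 0.10, and 3719 events in 2532 genes were (16.2% of the 22915). The study compared 3 samples of non-clonal control cells carrying the empty vector pRetroX-Tight-Pur with 3 samples of 1 clone carrying a doxycycline-inducible, Flag-tagged wild-type RBM47, and all 6 samples received 10 ng/ml doxycycline for 3 days. The RBM47 cells derive from a single clone and the control cells do not, so RBM47 and the origin of the clone cannot be told apart. The table had 0 events in RBM47, so the transgene could not be checked in it. The labels do not say that samples of a group were grown separately. P-values from sample rates then measure only the spread between these samples, which may be technical. P-values from reads summed over a group do not measure that spread.

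A cassette exon is an exon that the spliceosome either joins to both neighbouring exons or leaves out with the introns around it. RNA-binding proteins that bind beside or within such an exon can raise or lower its inclusion, and a protein can do both, at different exons. RBM47 is an RNA-binding protein with several RNA recognition motifs, and intronic binding sites are among those known for it. An exon whose length is a multiple of 3 keeps the reading frame whether it is included or skipped.

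The inclusion rate of an event runs from 0 to 1. Reads that join the exon to a neighbour count as including, and the rate is their share of a sum in which each skipping read enters 2 times, since a skipped exon leaves 1 junction and an included exon 2. Pooled rates come from the read totals of a group. The totals and the 6 sample rates can disagree, and the pooled control rate was above the mean of the 3 control rates in 3088 of 3719 members. The reason was not tested. Of the 3719 members, 7 had a pooled rate of at least 0.30 in RBM47 cells with a 95% exact interval that lay wholly above 0.10, and these are called switched on below. They are exons of CSPP1, CA12, TBC1D15, KIAA1217, NADK2, SLK and EPB41.

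Each of the 7 was matched to 1 exon of the same gene in the GRCh37 annotation (GENCODE), by the distance between the ends of the neighbouring exons. The sequences of 6 of them are shown on the transcribed strand because these exons are the ones switched on, all but that of CSPP1, together with the exon of CTNND1, which had the most reads among the other members called by both tests below. Capitals mark the exon, lower case marks the 40 intron bases before it and the 15 after it, and the coordinates are those of the exon in capitals. All are annotated as coding in at least 1 transcript.
CA12, chr15:63620297-63620329, minus strand: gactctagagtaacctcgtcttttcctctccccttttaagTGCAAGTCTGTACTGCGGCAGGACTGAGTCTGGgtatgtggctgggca
TBC1D15, chr12:72288105-72288155, plus strand: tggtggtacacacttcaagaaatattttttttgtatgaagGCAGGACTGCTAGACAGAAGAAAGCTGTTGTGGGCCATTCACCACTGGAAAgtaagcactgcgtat
KIAA1217, chr10:24783429-24783533, plus strand: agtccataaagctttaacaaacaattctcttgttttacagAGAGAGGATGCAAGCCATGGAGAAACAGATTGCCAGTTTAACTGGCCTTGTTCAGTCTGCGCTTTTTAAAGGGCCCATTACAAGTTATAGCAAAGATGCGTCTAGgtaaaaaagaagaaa
NADK2, chr5:36208727-36208792, minus strand: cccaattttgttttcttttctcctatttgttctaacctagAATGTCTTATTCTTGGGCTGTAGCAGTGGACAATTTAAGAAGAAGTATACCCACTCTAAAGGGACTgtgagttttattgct
SLK, chr10:105770574-105770666, plus strand: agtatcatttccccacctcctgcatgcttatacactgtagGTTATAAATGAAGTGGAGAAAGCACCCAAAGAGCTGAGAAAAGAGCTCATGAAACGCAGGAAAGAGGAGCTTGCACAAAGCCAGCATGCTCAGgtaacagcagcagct
EPB41, chr1:29395245-29395280, plus strand: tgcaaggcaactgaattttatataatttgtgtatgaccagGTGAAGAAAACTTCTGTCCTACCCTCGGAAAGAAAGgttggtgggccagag
CTNND1, chr11:57583387-57583473, plus strand: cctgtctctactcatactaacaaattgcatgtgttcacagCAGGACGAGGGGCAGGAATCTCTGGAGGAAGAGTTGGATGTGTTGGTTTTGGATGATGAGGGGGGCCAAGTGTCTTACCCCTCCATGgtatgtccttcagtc

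Most of these exons stayed skipped when RBM47 was expressed. In RBM47 cells 3527 of the 3719 members (94.8%) again had a pooled rate of at most 0.10, and 374 had no including read. The median pooled rate was 0.0223 in control and 0.0197 in RBM47 cells. Of the members, 1626 were higher and 1956 lower in RBM47 cells, 137 were equal, and the median difference was -0.000510, against 0 over all 22915 events. The members were read by a median of 318 reads in control and 245 in RBM47 cells, and the median ratio of RBM47 to control reads was 0.816 in them and 0.866 over all events. The part of this lower read number in the rates was not tested.

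A choice on a low value in one group alone favours a higher value in the other, so the same choice was made with the groups exchanged. At most 0.10 in RBM47 cells were 3787 events, and 93.1% of these were at most 0.10 in control cells too. In control cells 260 of the 3787 lay above 0.10, and in RBM47 cells 192 of the 3719 members did. At 0.30 or more with an interval above 0.10 there were 7 events in each direction. At 0.50 or more there were 4 in RBM47 cells (CSPP1, CA12, TBC1D15 and KIAA1217) and 0 in control cells with the groups exchanged. The events above 0.30 in control and at most 0.10 in RBM47 cells lay in TPM3, CADPS2, SPAG9, TTC7A, KCTD21, PHLDB1 and GPR116. Their pooled control rates ran from 0.311 (GPR116) to 0.429 (TPM3). KCTD21 had a rate of 0 in all 6 samples, so its sample rates do not show the change. In CADPS2 the groups overlapped, since RBM47 replicate 1 lay above control replicate 1. In TPM3, SPAG9, TTC7A, PHLDB1 and GPR116 every control sample lay above every RBM47 sample. The sample rates of these events, KCTD21 excepted, were matched back by the RBM47 average alone. At 0.20 or more there were 28 against 22, with a ceiling of 0.05 in place of 0.10 there were 3 against 1, and with means of sample rates 17 against 12. The counts on sample rates include rows whose rates were matched back by the RBM47 average alone, as described with the processing.

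**Figure D1:**
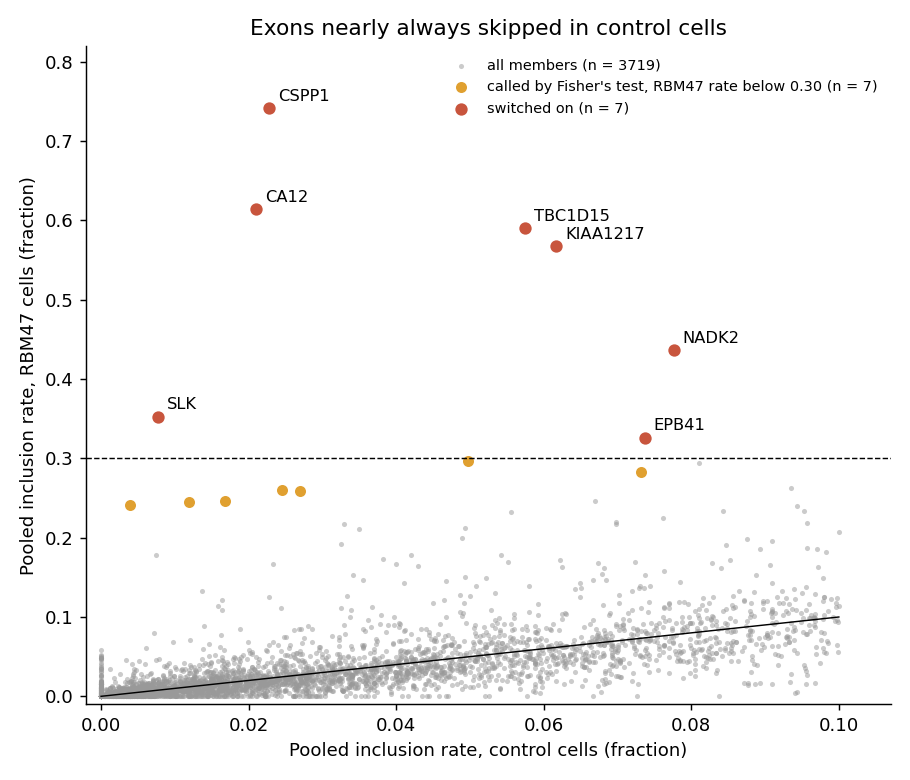
Pooled inclusion rate of the 3719 members in control cells (x axis, fraction) and in RBM47 cells (y axis, fraction), 1 point per exon event. The solid line marks equal rates and the dashed line a rate of 0.30. Most points lie near the solid line, and the 7 switched-on exons, from EPB41 at 0.326 to CSPP1 at 0.742, lie above the dashed one.

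**Figure D2:**
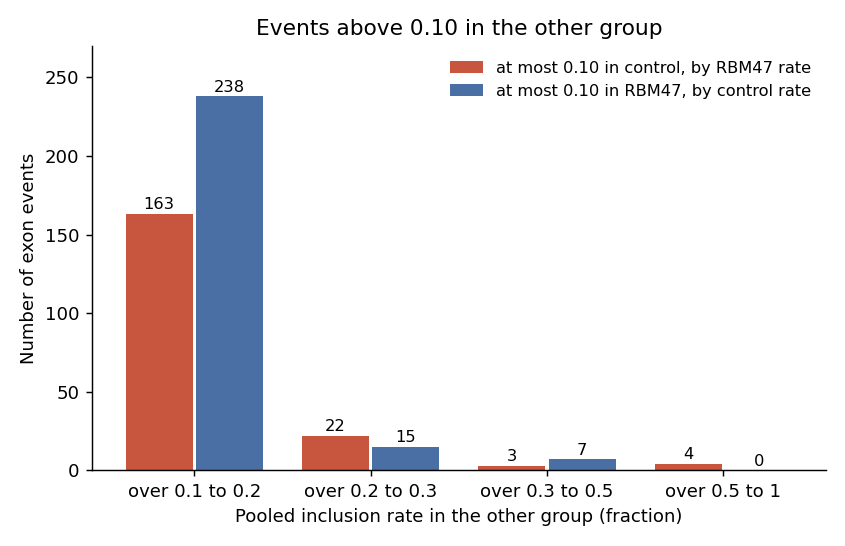
Number of events above 0.10 in the other group (y axis) by their pooled rate there (x axis, fraction), for events at most 0.10 in control cells (red) and at most 0.10 in RBM47 cells (blue). Of the events chosen in control cells 163 lay over 0.1 to 0.2, against 238 with the groups exchanged, and over 0.5 there were 4 against 0.

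The switched-on exons were spread over the control rates. Of the 1736 members with a control rate of 0.02 or less, 1 was switched on (SLK). Of the 797 with a control rate above 0.02 and up to 0.04, 2 were (CSPP1 and CA12). The 550 from 0.04 to 0.06 held 1 (TBC1D15), the 363 from 0.06 to 0.08 held 3 (KIAA1217, NADK2 and EPB41) and the 273 from 0.08 to 0.10 held 0. No including read was seen in control cells for 261 members, of which 135 had none in RBM47 cells either, and the highest RBM47 rate among the 261 was 0.0588, in an exon of ANK3. With the groups exchanged, 0 events that started at 0.04 or less reached 0.30, and 4 of the 7 had started above 0.08. These counts describe the choice and were not tested.

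The exon of SLK, a Ste20-like kinase that acts in cytoskeletal and focal adhesion dynamics, was the switched-on exon with the lowest control rate and the most reads. Its inclusion rates were 0.00862, 0.0127 and 0 in the 3 control samples and 0.325, 0.393 and 0.333 in the 3 RBM47 samples. The groups did not overlap, and the RBM47 rates lay close together. Reads including the exon went from 6 in control to 159 in RBM47 cells, while reads skipping it went from 387 to 146. The pooled rate was 0.00769 (95% exact interval 0.00159 to 0.0223) in control and 0.353 (0.290 to 0.419) in RBM47 cells. The intervals treat including reads as counting 1 for each 2 and cover counting error only. The sample rates of SLK and of the other switched-on exons, EPB41 excepted, were matched back from other rows by the printed RBM47 average alone. The control rates used for them did not average to the printed control average. Gaps between the groups in the sample rates below rest on that matching.

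The exon of CSPP1, which encodes a protein of centrosomes, spindle poles and cilia, reached the highest rate. It is 24 nt long and lies at chr8:67999058-67999081 of GRCh37. All 3 control samples were at a rate of 0, and the RBM47 samples were at 0.857, 0.727 and 0.680. Reads were few, with 2 including and 43 skipping in control against 46 and 8 in RBM47 cells, and the interval of the RBM47 rate ran from 0.554 to 0.881. In these cells the included form thus made up most of the reads of an exon that had 2 including reads in control.

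CA12 encodes carbonic anhydrase XII, a membrane enzyme that converts CO2 and water to bicarbonate. The control samples were all at 0, and the RBM47 samples were at 0.826, 0.333 and 0.556. The groups did not overlap, but the RBM47 rates spread widely, and they rest on 35 including and 11 skipping reads in all, against 3 and 70 in control. The mean difference was 0.572 with an SD of 0.247 among the RBM47 samples.

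TBC1D15 encodes a GTPase-activating protein for Rab proteins, which direct membrane traffic. Its exon was at 0.104, 0.0296 and 0.0159 in control and at 0.726, 0.472 and 0.538 in RBM47 samples. Every RBM47 sample was above every control sample, with control replicate 1 the highest of the controls. Reads including the exon went from 19 to 121 and reads skipping it from 156 to 42.

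The exon of KIAA1217 showed the smallest spread relative to its change. The control samples were at 0.0385, 0.0508 and 0.0800 and the RBM47 samples at 0.541, 0.524 and 0.583. NADK2, which encodes the mitochondrial NAD kinase, had an exon at 0, 0.0682 and 0.0204 in control and at 0.407, 0.355 and 0.480 in RBM47 samples. In both genes the groups lay well apart, with 10 including reads in control against 76 in RBM47 cells for KIAA1217 and 17 against 48 for NADK2.

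EPB41 encodes a membrane skeleton protein that ties spectrin and actin to the cell membrane, and its exon was the weakest of the 7. The sample rates were 0, 0 and 0.0286 in control and 0, 0.400 and 0.130 in RBM47 samples. The groups overlapped, since RBM47 replicate 1 was at 0. The pooled rate of 0.326 rests on 30 including and 31 skipping reads, and without RBM47 replicate 2 the mean difference between the groups was 0.0557. EPB41 also had 9 other events in the table, with pooled differences from -0.526 to 0.0820, and 2 of them were called lower by Fisher's test.

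**Figure D3:**
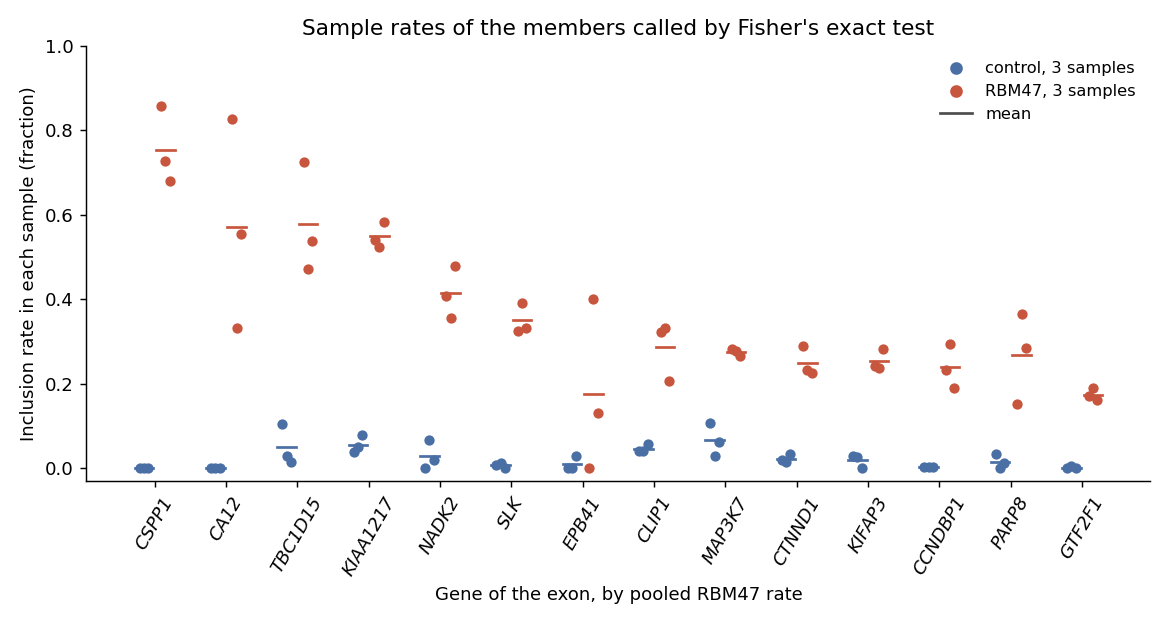
Inclusion rate (y axis, fraction) in each of the 3 control samples (blue) and 3 RBM47 samples (red) for the 14 members called by Fisher's exact test, by gene (x axis). Points are samples and lines are means, and in 12 of the 14 the sample rates were matched back from other rows by the RBM47 average. In 13 of the 14 every RBM47 sample lies above every control sample, and the exception is EPB41.

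Over the 22915 events, 14 members were called higher in RBM47 cells by Fisher's exact test on the read totals, with a Benjamini-Hochberg adjusted p under 0.05 over the 22915 events and a pooled difference of at least 0.2. These were 0.376% of the members, where 0.406% of all 22915 events were called higher. The members were selected on the control rates that enter this test, so nothing is read from the difference between these shares. With the groups exchanged, 9 of the 3787 events were called lower, where 0.432% of all events were. All 7 switched-on exons were among the 14, with adjusted p from 6.34e-59 for SLK to 0.00338 for EPB41 (Fisher's exact test, Benjamini-Hochberg). The other 7 were exons of CLIP1, MAP3K7, CTNND1, KIFAP3, CCNDBP1, PARP8 and GTF2F1, with pooled RBM47 rates of 0.297 down to 0.242. Since the test pools reads over samples, the spread among replicates does not enter it.

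limma, in which that spread does enter, was fitted to the 6 sample rates of 22906 events on the arcsine square root scale. It called 8 members higher (adjusted p under 0.05 and a mean difference of at least 0.2). These were 0.215% of the members, where 0.122% of the events tested were called higher. Members were selected for low control rates and control rates enter this test too, so nothing is read from the difference between these shares. The 8 were CSPP1, CA12, TBC1D15, KIAA1217, SLK, CTNND1, KIFAP3 and CCNDBP1, and all 8 were also called by Fisher's test. With the groups exchanged limma called 2 events lower, where 0.166% of the events tested were. The limma adjusted p was 0.00680 for CSPP1, 0.0490 for CA12, 0.0218 for TBC1D15, 0.0237 for KIAA1217 and 0.00295 for SLK. It was 0.0631 for NADK2 and 0.815 for EPB41, so these 2 switched-on exons were not called by limma. Leaving out 1 sample left 2 to 6 of limma's calls in number, with 2 without control replicate 1, 3 without control replicate 2, control replicate 3 or RBM47 replicate 1, and 4 without RBM47 replicate 3. In the rows of these 8 members, and of NADK2, CLIP1, MAP3K7 and PARP8, the deposited sample rates belonged to other rows and were matched back by the printed RBM47 average, as described with the processing. The sample rates of 12 of the 14 members called by Fisher's test thus rest on that matching, and with only rows aligned as deposited limma called 0 members. Fisher's test uses the totals and does not depend on this matching.

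No overlap alone was common. Every RBM47 sample lay above every control sample in 170 members (4.57%), where 4.89% of all events with sample rates did so, and 6 of the 7 switched-on exons were among them. The sample RBM47 replicate 2 stood apart, with 1904 of the 3719 members (51.2%) at a rate of exactly 0, against 34.5% to 38.6% in the other 5 samples. It also had the most members at 0.30 or more, with 19 against 11 in RBM47 replicate 1 and 7 in RBM47 replicate 3, and 0 in each control sample, which took part in the choice. With the difference taken from mean sample rates, Fisher's test called 12 members, and 15 with RBM47 replicate 2 left out of that difference. The p-values of Fisher's test stayed those of all samples, since no counts of single samples were used. limma, refitted without RBM47 replicate 2, called 6.

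To read the exons in a sample that took no part in choosing them, events were chosen by a mean rate of at most 0.10 in 2 of the control samples, which gave 4431 to 4448 events. In the control sample left out, 3, 9 and 7 of these events were at 0.30 or more, for control replicates 1, 2 and 3. In the RBM47 samples 19 to 44 of the same events were, and the lowest of these 9 counts was above each of the 3 control counts. RBM47 replicate 2 had the highest count each time, with 37, 44 and 44. RBM47 replicates 1 and 3 had 19 to 27. At 0.50 or more the left-out control samples held 1, 6 and 2 events and the RBM47 samples 10 to 16. With the groups exchanged, a choice examined after these counts were seen, the left-out RBM47 samples held 16, 24 and 11 events at 0.30 or more and the control samples 10 to 20. The ranges of the exchanged choice overlapped. Both choices include rows whose sample rates were matched back by the RBM47 average alone. In such a row of MYO6 the mean control rate was 0.0278 and the pooled control rate 0.191. The counts were not repeated without these rows. They share their events and samples and are given without a test.

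**Figure D4:**
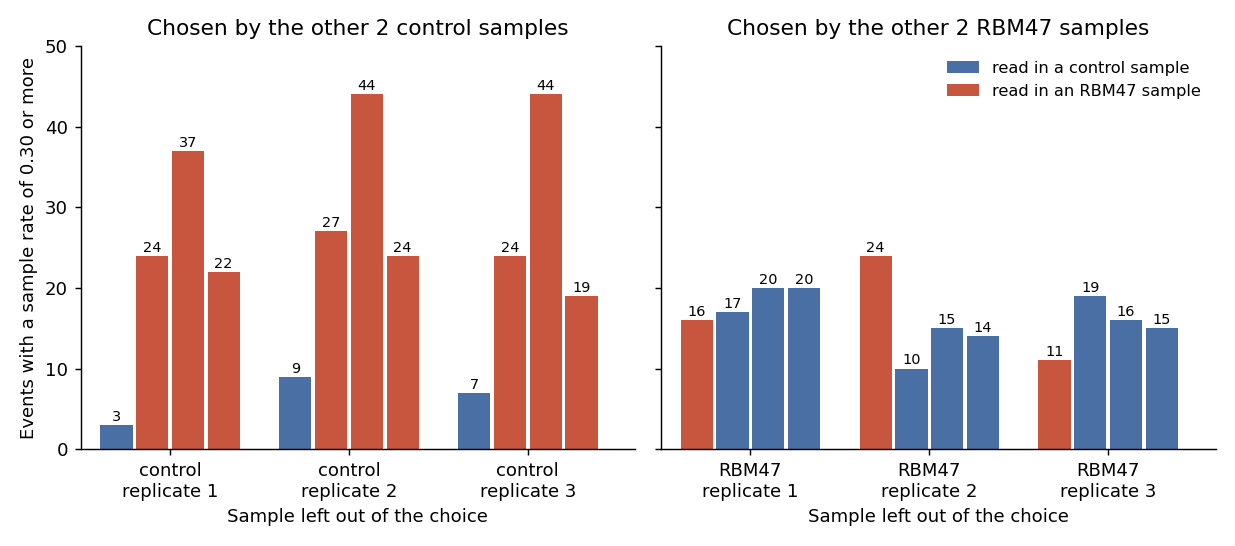
Number of events with a sample rate of 0.30 or more (y axis) among events chosen by a mean rate of at most 0.10 in 2 samples of a group, by the sample left out (x axis), with control samples choosing on the left and RBM47 samples on the right. Blue bars are counts in control samples and red bars in RBM47 samples. On the left the left-out control samples hold 3 to 9 events and the RBM47 samples 19 to 44, and on the right the counts overlap. Rows matched back by the RBM47 average alone are included.

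The next group of members reached an intermediate rate. In 23 events of 22 genes the pooled RBM47 rate was at least 0.20 and below 0.30, 15 events did so with the groups exchanged, and 7 of the 23 were called by Fisher's test and 3 by limma. CTNND1 encodes p120 catenin, which binds the cytoplasmic tail of cadherins at cell junctions. Its exon was at 0.0191, 0.0141 and 0.0340 in control and at 0.289, 0.232 and 0.226 in RBM47 samples. Reads including the exon went from 36 to 281 and the limma adjusted p was 0.00498, with no overlap of the groups.

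KIFAP3, the accessory subunit of kinesin-2, had an exon at 0.0303, 0.0274 and 0 in control and at 0.241, 0.237 and 0.284 in RBM47 samples. CCNDBP1 encodes a cyclin D1 binding protein, and its exon was at 0.00221, 0.00395 and 0.00395 in control and at 0.232, 0.294 and 0.191 in RBM47 samples. Both were called by limma as well, with adjusted p of 0.0352 and 0.00235. The matched exon of CCNDBP1, 57 nt long, is annotated only in transcripts labelled as targets of nonsense-mediated decay, the pathway that degrades mRNA with a premature stop codon, and so is that of PARP8, 97 nt long. PARP8 belongs to the family of ADP-ribosyltransferases, and its exon was at 0.0333, 0 and 0.0130 in control and at 0.153, 0.366 and 0.286 in RBM47 samples.

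MAP3K7 encodes TAK1, a kinase of cytokine and TGF-beta signalling. Its 81 nt exon was at 0.108, 0.0300 and 0.0629 in control and at 0.282, 0.277 and 0.266 in RBM47 samples. CLIP1 encodes CLIP-170, a protein of growing microtubule ends, and its 105 nt exon was at 0.0409, 0.0420 and 0.0581 in control and at 0.323, 0.333 and 0.208 in RBM47 samples. Neither was called by limma, with adjusted p of 0.120 for MAP3K7 and 0.0929 for CLIP1, although the groups of both exons did not overlap. The mean difference for MAP3K7 fell to 0.190 without control replicate 2.

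GTF2F1 encodes the large subunit of the general transcription factor TFIIF, and its exon had the most reads of the 14. The sample rates were 0, 0.00493 and 0.000732 in control and 0.172, 0.190 and 0.162 in RBM47 samples. The including reads went from 14 to 1091 while the skipping reads stayed near the same number, 1809 in control and 1711 in RBM47 cells. Its limma adjusted p was 0.000651, but its mean difference of 0.173 was below the 0.2 that a limma call required. CD47, a cell surface signal against phagocytosis, ANLN, the cytokinesis scaffold anillin, and NEDD4L, a ubiquitin ligase, likewise had adjusted p of 0.00680, 0.0414 and 0.0249 with mean differences of 0.183, 0.150 and 0.155. In CD47 the including reads went from 329 to 1095.

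**Figure D5:**
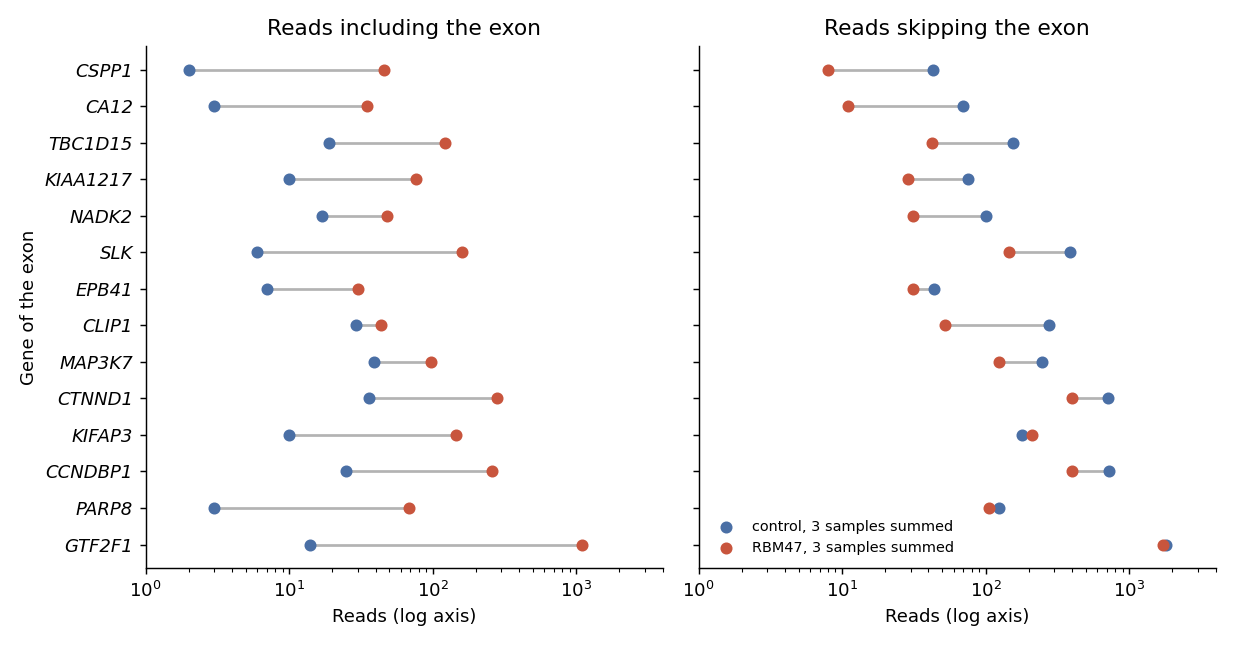
Reads including the exon (left) and skipping it (right), summed over the 3 control samples (blue) and the 3 RBM47 samples (red), on a log axis, for the 14 members called by Fisher's exact test. Including reads were higher in RBM47 cells in all 14. Skipping reads were lower in RBM47 cells in all but KIFAP3, which had 180 in control and 209 in RBM47 cells, and they were close in PARP8 and GTF2F1.

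The read totals show that these rates changed in more than one way. In KIFAP3, PARP8 and GTF2F1 the including reads were higher at a number of skipping reads close to that of control. In CLIP1 the skipping reads went from 277 to 52, while the including reads went only from 29 to 44. All reads of CLIP1 at this event came to 0.314 of the control number, and at its 3 other events the median was 0.309. For KIFAP3 the reads at the event were 1.87 times those of control and for GTF2F1 1.54 times. In bulk RNA a rate between 0 and 1 may come from all cells including the exon partly or from some cells including it fully, and these cannot be told apart.

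Other events of the same genes mostly did not move with the member. The 14 genes held 52 other events with different outer ends, and 2 of these were called by Fisher's test in either direction. Both were in EPB41 and lower in RBM47 cells, since none of its other events was higher by more than 0.0820. SLK had 1 other event, with a difference of 0, and NADK2 had 1, at 0.00360. The 6 other events of CSPP1 differed by -0.00348 to 0.0994, the 5 of TBC1D15 by -0.0112 to 0.0727 and the 7 of CTNND1 by -0.109 to 0.0613. KIAA1217 had 4, from -0.00227 to 0.276. CA12 had 0.

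The intermediate group also held events whose pooled and sample rates disagreed. ANK3, which anchors membrane proteins to the cytoskeleton, had a pooled rate of 0.234 in RBM47 cells and a rate of 0 in all 6 samples. CACNB1, a calcium channel subunit, had 0.220 with RBM47 sample rates of 0, 0 and 0.0345. Neither was called by either test. In RBM47 cells their totals held 22 (ANK3) and 27 (CACNB1) including reads, and why the sample rates do not show these was not tested. Over all members the 6 rates were all 0 in 437.

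The choice did not use the length or coding status of the exons. All 7 switched-on exons had a length that is a multiple of 3, with lengths of 24 to 105 nt and a median of 51 nt. All 7 are annotated as wholly coding, which here means in at least 1 transcript. The exons of CSPP1 and EPB41 also lie in transcripts labelled as targets of nonsense-mediated decay. Among the 1317 members that stayed at 0.10 or less and were matched to 1 exon, 43.3% had such a length, 38.6% were wholly coding and the median was 90 nt. Over all 11231 matched events 45.0% had such a length and 81.3% were coding. Coding exons that stayed at 0.10 or less were more often in frame than that, with 335 of 509 (65.8%). Of the 13 matched exons among the 14 called by Fisher's test, 11 had a length that is a multiple of 3, and the exceptions were PARP8 with 97 nt and GTF2F1 with 208 nt. Of the 12 matched members with RBM47 rates of 0.20 to 0.30, 8 had such a length and 9 were wholly coding. Of the 4 matched events among the 7 lost with the groups exchanged, 3 had such a length and 3 were coding, with a median of 42 nt. These shares describe few exons and were not tested.

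All 7 exons are preceded by AG and followed by GT, as are nearly all matched exons. The 100 intron bases before the switched-on exons held 29% to 45% T on the transcribed strand, with a median of 38%, against medians of 35% for the members that stayed low and 34% for all matched events. A run of TTTTT, searched on the transcribed strand only, lay in the 100 bases before 1 of the 7 (TBC1D15) and after 1 of the 7. It lay before 47.6% and after 31.3% of the exons that stayed low, and before 40.1% and after 29.2% of all matched exons. A match of these letters is a description and not a binding site.

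The gene groups below are lists of selected genes and do not hold every gene of a class. The membrane traffic list held 98 members in 61 genes, and 94 of these stayed at 0.10 or less. Their highest RBM47 rate was 0.262, in AP3S1, a subunit of the AP-3 sorting complex, which was at 0.0864, 0.0824 and 0.106 in control and 0.317, 0.400 and 0.122 in RBM47 samples and was called by neither test. No member on this list was switched on, and TBC1D15, described above, was not on it. ITSN2, ARFGAP1 and VPS54 followed, with 0.164, 0.119 and 0.102. AP2B1, a subunit of the clathrin adaptor AP-2, had 27 including reads and a pooled rate of 0.0178 in control, and 0 including reads beside 264 skipping reads in RBM47 cells, which allows a rate of up to 0.0139 at the upper end of the exact interval.

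The actin and microtubule cytoskeleton list held 96 members in 59 genes, of which 91 stayed low. On it 1 was switched on (EPB41) and 2 were called by Fisher's test (EPB41 and CLIP1). After ANK3 on this list came ENAH, an actin regulator of the Ena/VASP family, with a pooled rate of 0.0400 in control and 0.167 in RBM47 cells. KIFAP3, AFAP1 and ANLN, with RBM47 rates of 0.259, 0.217 and 0.217, were not on it. The centrosome and cilium list held 46 members in 30 genes, of which 44 stayed low and CSPP1 was the one called. CCDC66, CEP89 and CEP192 had RBM47 rates of 0.135, 0.0828 and 0.0805.

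The kinase and signalling list held 70 members in 46 genes, and 9 of these left the range of 0.10 or less. SLK, MAP3K7 and CTNND1 were called by Fisher's test, and MAP3K4, another kinase that acts upstream of stress-activated kinases, had a pooled rate of 0.0762 in control and 0.225 in RBM47 cells without passing the difference of 0.2. The adhesion and extracellular matrix list held 64 members in 37 genes, of which 58 stayed low, and KIAA1217 and CTNND1 were called by both tests. After CD47 came SEMA4D, a semaphorin, at 0.207, with sample rates of 0.412, 0 and 0.152 in RBM47 cells against 0.143, 0.0909 and 0.0556 in control.

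The other 3 lists held no called member, at list sizes where 0.376% of all members were called. The chromatin and DNA repair list had 73 members, of which 68 stayed low. Its highest RBM47 rate was 0.128 in KDM6A, a histone demethylase. The RNA binding and splicing list had 91, of which 87 stayed low and the highest was 0.147 in RBM41. SIRT1 and PRPF38A, with RBM47 rates of 0.172 and 0.149, were not on these 2 lists. The ubiquitin list had 92, of which 88 stayed low and the highest was 0.192 in NEDD4L. The lowest member of each list had 0 including reads in RBM47 cells. Beside AP2B1 these were in DIAPH2, CEP112, FYN, L1CAM, SIRT2, STAU2 and USP24, with pooled control rates from 0 (STAU2) to 0.0263 (CEP112), and the upper ends of their exact RBM47 intervals ran from 0.00883 (FYN) to 0.116 (CEP112). The median difference of the 8 groups lay between -0.00259 and 0.00119, beside -0.000510 for all members. In all, 624 members lay in a gene on any of the lists, and 7 of the 14 members called by Fisher's test did.

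Some genes held members that stayed skipped beside larger changes at another event of the gene. MYO6, a myosin that moves toward the minus end of actin, had 3 members, with RBM47 rates of 0.0169, 0.00741 and 0. SEC31A, a coat protein of vesicles that leave the endoplasmic reticulum, had 2, at 0.0641 and 0.002. Another event of MYO6 went from a pooled rate of 0.191 to 0.936 and another of SEC31A from 0.138 to 0.639, and their control rates above 0.10 left them outside the choice. PBRM1, MBNL1 and DIAPH2 had members as well, and none of these had an RBM47 rate above 0.0862.

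The deepest members that stayed skipped were read most often of all. LGALS1, which encodes galectin-1, went from a pooled rate of 0.0248 with 1440 including reads to 0.0237 with 951. S100A10, a partner of annexin A2, went from 0.00385 to 0.00198, and RPL35A, a ribosomal protein gene, from 0.00459 to 0.00530. HINT1 and TPT1 had RBM47 rates of 0.0198 and 0.0149. S100A10 passed Fisher's test with an adjusted p of 0.000136 (exact test, Benjamini-Hochberg) at a pooled difference of -0.00187. In all, 240 members (6.45%) had an adjusted p under 0.05 at any size of difference, where 5.76% of all events did, and of the 240 members 118 were higher and 122 lower in RBM47 cells.

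At the border of the choice, the events just inside were SEMA4D and TBC1D16, both at a pooled control rate of 0.1, with RBM47 rates of 0.207 and 0.114. Just outside lay AURKB and FAT1, also at 0.1 when rounded, with RBM47 rates of 0.102 and 0.0199.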

How the data were processed

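RNA was sequenced from poly(A)-selected libraries of 3 control and 3 RBM47 samples, and groups came from the sample labels. The submitters' processing notes name TopHat, and the study's methods name STAR and hg19, that is GRCh37, for sequencing of cell line RNA. Which build the table's coordinates use was not given in the sources used here. Of 11231 events matched to 1 GRCh37 exon, 1 lay within 10 bases of that position, so coordinates are given from GRCh37 only. The authors deposited, as fractions, 6 inclusion rates per event and 2 group averages, and read counts of the including and skipping isoform summed over a group. Depth per sample is unknown, because no counts of single samples were used here. The authors' own odds ratios, p-values and differences were not used.

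In 1392 of 24725 rows the sample rates did not average to the printed group averages. For 1122 of these, another misaligned row carried both averages within 3e-09 and its rates were used. For 253 the RBM47 average alone gave the match, so the control rates used there did not average to the printed control average. No rates were kept for 17 rows. Of the 3719 members, 3452 were aligned as deposited, 255 were matched by both averages and 12 by the RBM47 average. Over the rows matched by the RBM47 average and read 30 times or more per group, the mean control rate lay a median of 0.0265 from the pooled rate of the totals, against 0.00305 in aligned rows. The mean RBM47 rate lay a median of 0.0247 from its pooled rate there, against 0.00355 in aligned rows. To check that totals belong to the gene of their row, log2 reads were compared with the mean of other aligned events of the gene, and r across events was 0.777 in these rows and 0.806 in aligned rows. Events are not replicates, and these r only describe the matching.

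Pooled rates, exact (Clopper-Pearson) 95% intervals and two-sided Fisher's exact tests were computed with scipy 1.17.1. limma 3.58.1 (R 4.3.3) was fitted to arcsine square roots, with the prior variance following log2 reads, and events with 6 equal rates got p = 1. The script was tested on simulated data. Benjamini-Hochberg adjustment ran over the 22915 events for Fisher's test and the 22906 events with sample rates for limma. Of the members, 1390 were matched to 1 GRCh37 exon by gene and span, 399 to several, 1919 to none and 11 had no gene in the annotation, and among genes with at least 2 matched events 99.4% had 1 offset between the table and GRCh37. Sequences are from the GRCh37 primary assembly.

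The members, the rules for a switched-on exon and the gene lists were chosen with earlier results of these data known. Named exons were all those switched on or called by a test, events at the border and the 5 deepest members that stayed low. Also named were the highest and lowest of each gene list and the members of genes listed by name (SLK, SEC31A, MYO6, CSPP1, PBRM1, DIAPH2 and MBNL1). The 7 exchanged events were named as well, of which the rule had asked for 5. The intermediate examples ANK3 and CACNB1 and the other limma results below a difference of 0.2 were named after their values were seen. Alternatives changed the ceiling, level, read minimum, rate, transformation, trend, block and samples.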

Additional observations from a re-analysis of the deposited data

How the results depend on the processing

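The number of exons switched on was 7. It was 3 with a ceiling of 0.05 and 42 with 0.20, 12 with a minimum of 10 reads and 2 with 100, 28 at a level of 0.20 and 4 at 0.50, and 16 with including reads not halved. With the groups exchanged, the ceilings of 0.05 and 0.20 gave 1 and 38, and the levels of 0.20 and 0.50 gave 22 and 0. Means of sample rates gave 17, of which 6 were among the 7, against 12 with the groups exchanged. Leaving out 1 sample on that scale gave 17 to 21, with the exact interval kept from all reads. Rows matched by the RBM47 average alone enter these counts. Fisher's test gave 14 calls, 38 with a difference of 0.1, 8 with a minimum of 100 reads and 9 with a ceiling of 0.05. It gave 11 to 15 with 1 sample left out of a difference of mean rates, where its p-values still used the reads of all samples. limma gave 8 calls, 5 without the trend, 5 with a minimum of 100 reads, 0 with only rows aligned as deposited (12 members had been matched by the RBM47 average, all 8 called among them) and 2 to 6 with 1 sample left out, the fewest without control replicate 1. The mean count of events at 0.30 or more in left-out control samples was 6.33, and 34.3 at 0.20, 3 at 0.50, 1.33 with a minimum of 100 reads, and 17 in RBM47 samples with the groups exchanged. In the RBM47 samples it was 29.4, and 75.9, 12.8 and 10.4 under the same changes, and 16.2 in control samples with the groups exchanged. The cause of these changes was not tested beyond the number of events each setting admits.

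With the replicate block limma called 2 members, SLK and CCNDBP1, both among the 8. Same-numbered samples did not deviate together across events (r of -0.0141, 0.00347 and -0.0144). Counting error in the sample rates can hide a shared deviation, so these r cannot decide whether the replicate numbers mark pairs. Over the 14 called exons the difference stayed at 0.2 or more in 84 of 98 recomputed values, the other 14 were in EPB41, MAP3K7 and GTF2F1, and 0 reversed. The unadjusted limma p was under 0.05 at 98 members (2.64%), where it was at 7.01% of all events, and with only aligned rows it was at 51 members, of which 1 had an adjusted p under 0.05 at a difference below 0.2. Few reads per event limit CSPP1, CA12 and EPB41 most.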
